A study of Homo sapiens with 16 samples.

Results

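The MED1 peaks at PCDH7, on chromosome 4 from 30600 to 31250 kb (hg19), hold the largest number of MED1 peaks of any 650 kb in unmodified HCT116 cells. All peaks of the 6 deposited lists that overlap this window were taken, 94 of 3464 peaks. Overlapping peaks were joined over the lists into 30 regions of 1584 in the whole series, numbered 1 to 30 in genome order. The window was chosen because earlier results of these data showed many peaks there, so the number of peaks is a description of the choice and was not tested.

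MED1 is a subunit of Mediator, the complex through which transcription factors on enhancers act on RNA polymerase II, and MED14 is the subunit that links the parts of the complex as its backbone. PCDH7 encodes protocadherin-7, a calcium-dependent adhesion protein of the cell membrane in the cadherin superfamily. Long runs of neighbouring sites with high Mediator signal are a known feature of dense enhancer clusters.

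The cells were HCT116, a human colorectal carcinoma line. The edited line, genotype OsTir1+/-;Med14-AID+/+, carries an auxin-inducible degron on MED14 and the plant protein OsTIR1, so that auxin sends MED14 to the proteasome. Its 4 conditions were 500 µM auxin for 3 h followed by Nutlin-3a for 1 h, auxin alone, water for 3 h followed by Nutlin-3a for 1 h, and water alone. Unmodified cells (WT) received Nutlin-3a or DMSO for 1 h, and no DMSO step is named for the edited line. Nutlin-3a releases p53 from MDM2 and so induces p53 signalling. Each WT list stands for 2 MED1 libraries, and each MED14-AID list for 1 library of 1 edited line. With 1 list a condition, the spread between cultures is not known and no test was made. Fold is the authors' value for a peak over background, given within a list to describe and rank peaks, and ratios of folds from separate lists are descriptions.

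The only sequence at hand for the gene is its promoter in the RefSeq table, build GRCh38.p14, chr4:30720119-30720418, plus strand, from 250 bases before to 50 after the annotated start. It is shown for its longest stretch of purines alone, in capitals. As the peaks are in hg19, no distance between this sequence and a peak was drawn.
PCDH7 promoter: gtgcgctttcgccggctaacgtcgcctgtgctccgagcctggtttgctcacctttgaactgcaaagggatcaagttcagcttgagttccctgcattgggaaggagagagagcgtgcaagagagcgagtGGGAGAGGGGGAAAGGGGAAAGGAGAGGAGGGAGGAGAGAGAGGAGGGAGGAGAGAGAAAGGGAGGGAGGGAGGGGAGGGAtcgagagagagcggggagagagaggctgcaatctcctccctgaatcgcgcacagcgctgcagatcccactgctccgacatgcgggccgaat
The stretch runs over 81 bases, from base 129 to base 209 counted from the first base shown. A run of purines alone or pyrimidines alone of at least this length is in 10 of 35116 RefSeq promoters of this length (0.0285%). The promoter is 60.3% G and C, against a median of 58.7% over those promoters. Neither strand holds the letters TGANTCA (AP-1), GGAATG (TEAD) or CTTTGAT (TCF/LEF), which are in 7.71%, 14.0% and 2.62% of the promoters. These letters were chosen for the peaks, whose own sequence was not analysed here.

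The 6 lists held 66 peaks with auxin and Nutlin-3a, 53 with auxin, 522 with water and Nutlin-3a, 463 with water, 1254 in WT cells with Nutlin-3a and 1106 with DMSO. The lists give no read totals, so depth is unknown and could set how many weak peaks were listed. Across the series, 12 regions were in the WT Nutlin-3a list and in that with auxin alone, but in neither the WT DMSO list nor that with auxin and Nutlin-3a. They are 0.758% of the 1584 regions. Of the PCDH7 regions, 0 of 30 showed that pattern. The only PCDH7 region listed with auxin was in all 6 lists, so this count is not a result about PCDH7.

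PCDH7 held 1 peak with auxin and Nutlin-3a (1.52% of that list) and 1 with auxin alone (1.89%). With water and Nutlin-3a it held 17 (3.26%), and with water alone 16 (3.46%). In WT cells it held 31 with Nutlin-3a (2.47%) and 28 with DMSO (2.53%). The summed width of the peaks was 14.6 kb with water and Nutlin-3a, against 12.4 kb with water alone. WT cells had 38.0 kb under peaks with Nutlin-3a, against 33.7 kb with DMSO. With auxin the single peaks were 856 bp with Nutlin-3a and 754 bp without. The PCDH7 peaks made up 36.2% and 40.0% of all chromosome 4 peaks with water and Nutlin-3a and with water, and 33.0% and 36.8% in WT cells with Nutlin-3a and DMSO. The locus was dense in the 4 lists without auxin, and a single position was listed in each list with it.

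**Figure D1:**
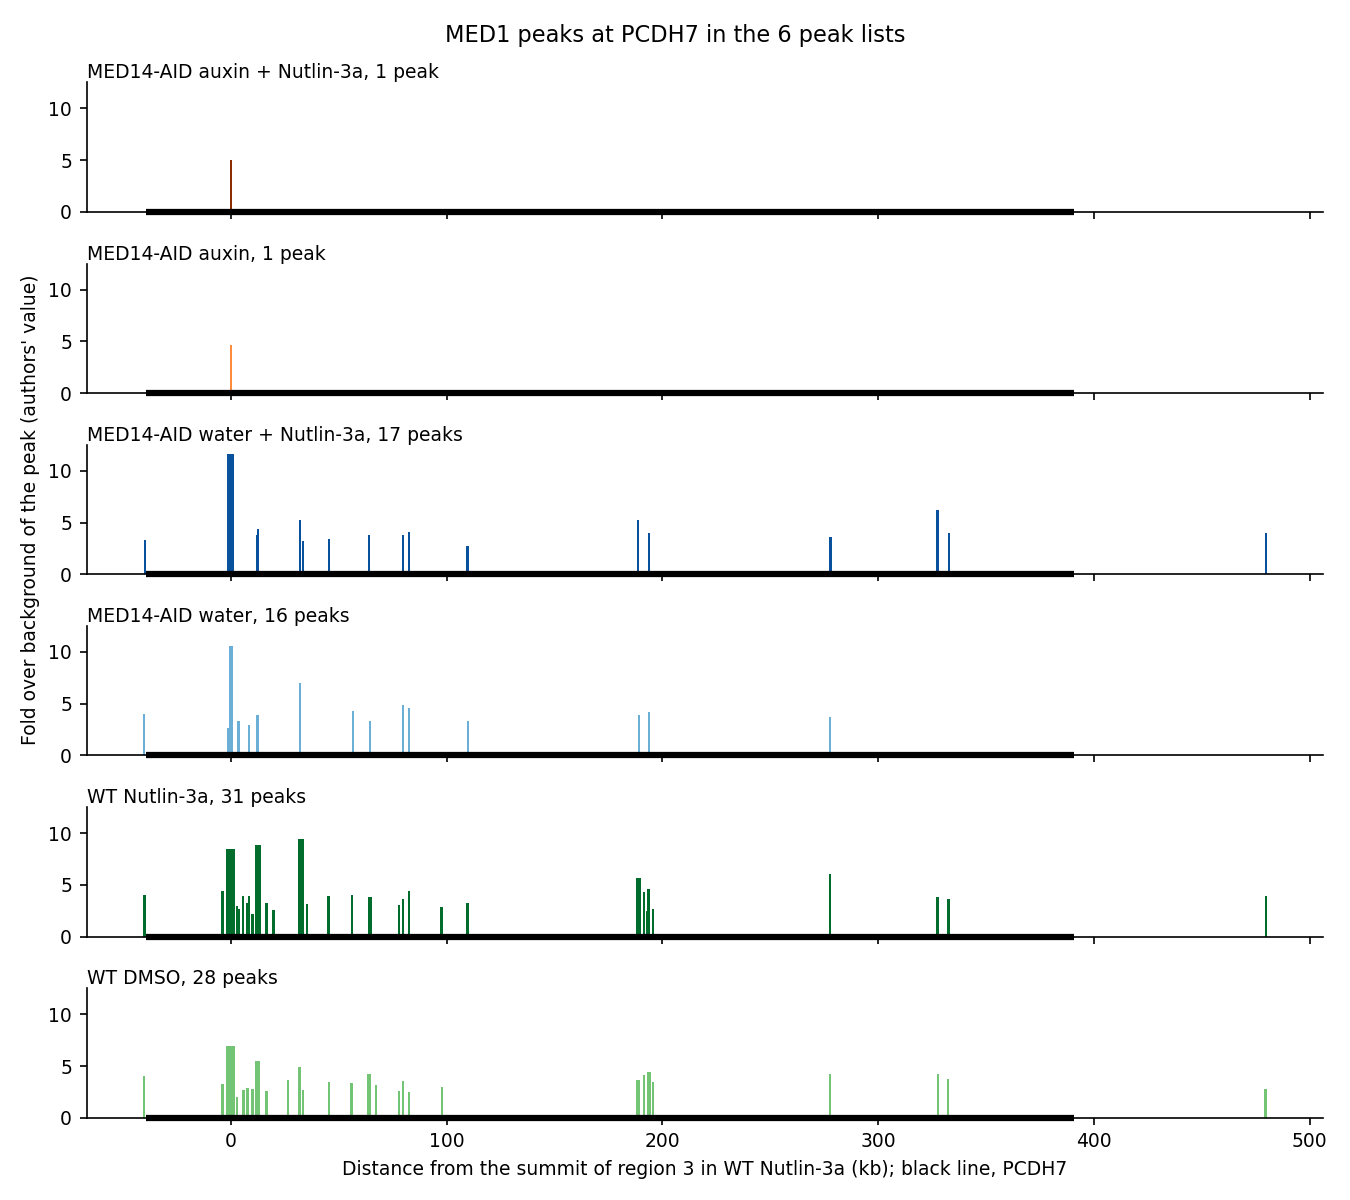
MED1 peaks at PCDH7 by list. The x axis is the distance in kb from the summit of region 3 in WT cells with Nutlin-3a, bar height is the fold of the peak, bars under 1 kb wide are drawn at 1 kb, and the black line is PCDH7 rounded to 10 kb. Each list with auxin has 1 peak, at region 3, against 17 with water and Nutlin-3a and 16 with water.

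The locus lay far from the nearest other peaks of its chromosome. The first region inside the window was region 1, from 30718426, and the last region 30, to 31239425. In WT cells the nearest peaks outside were 4148 kb before it with both treatments, with folds of 3.24 (Nutlin-3a) and 2.86 (DMSO). After it they were 16890 kb away with Nutlin-3a and 25173 kb away with DMSO, with folds of 3.38 and 3.23. With water and Nutlin-3a the nearest peaks were 13440 kb before and 16890 kb after, and with water alone 19065 kb and 17092 kb. The members just inside the window, regions 1 and 30, had WT folds of 3.99 and 3.92 with Nutlin-3a and of 4.02 and 2.78 with DMSO.

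Whether PCDH7 was the largest cluster depended on the line and on the joining distance. Where peaks up to 12500 bp apart were joined, its main cluster held 19 peaks over 87.9 kb in WT cells with Nutlin-3a and 18 over 87.5 kb with DMSO. At this distance each was the joined region with the most peaks in its list. The next in line held 13 peaks with Nutlin-3a (chromosome 6, 159118578 to 159160122) and 12 with DMSO (chromosome 8, 128218228 to 128279465). By covered length the PCDH7 cluster was first with Nutlin-3a (24.7 kb) and second with DMSO, at 23.4 kb against 30.6 kb for the chromosome 8 cluster. In MED14-AID cells the chromosome 6 cluster led with 10 peaks with water and Nutlin-3a and with water. The largest PCDH7 piece there held 3 peaks with water and Nutlin-3a and 6 with water alone. With a 5 kb joining distance, PCDH7 ranked 2 in both WT lists (11 peaks with Nutlin-3a and 8 with DMSO) and 1 with water alone, and with 25 kb it ranked 2 with water and Nutlin-3a. Over any 650 kb, which does not need joining, PCDH7 held the most peaks in both WT lists and with water alone. With water and Nutlin-3a it came second, at 17 against 18 on chromosome 8 from 126137543. The name "largest cluster" therefore holds by peak number for the WT lists when peaks are joined over 12500 bp or 25 kb, or counted in 650 kb, and does not hold at 5 kb. In the edited line it also depends on the measure.

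The 30 regions fall into 7 groups when joined up to 12500 bp over all lists. Region 1 lies by itself at the start of PCDH7, which is placed at 30720 kb to the nearest 10 kb. Regions 2 to 20 form the main group, 87.9 kb inside the first part of the gene. Regions 21 and 22 follow, then the 4 regions 23 to 26 within 7.77 kb, the single region 27, the pair 28 and 29, and region 30 beyond the end of the gene at 31150 kb. Of the 30 regions, 28 lie inside the gene by these rounded ends. The main group held 1 peak in each list with auxin, 9 with water and Nutlin-3a, 11 with water, 19 in WT cells with Nutlin-3a and 18 with DMSO.

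Typical PCDH7 peaks were of middling strength. Their median fold was 3.95 with water and Nutlin-3a and 3.95 with water, below the list medians of 4.25 and 4.38. In WT cells it was 3.82 with Nutlin-3a and 3.47 with DMSO, above the list medians of 3.41 and 3.19. Within the top 10% of their list by fold were 1 peak with water and Nutlin-3a, 1 with water, 4 in WT cells with Nutlin-3a and 2 with DMSO. Median peak width was 617 bp with water and Nutlin-3a and 670.5 bp with water, against 830.5 and 833.0 bp over those lists. In WT cells it was 1025 bp with Nutlin-3a and 1005 bp with DMSO, against 818.0 and 760.5 bp. PCDH7 peaks were thus wider than the list median in WT cells and narrower than it in MED14-AID cells.

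Region 3 (30756741 to 30761088) was the highest PCDH7 region by −log10 q in all 6 lists. Its fold was 5.05 with auxin and Nutlin-3a, 4.61 with auxin, 11.7 with water and Nutlin-3a, 10.6 with water, 8.49 in WT cells with Nutlin-3a and 6.98 with DMSO. The −log10 q was 12.3 with auxin and Nutlin-3a, 10.0 with auxin, 63.6 with water and Nutlin-3a, 49.9 with water, 109.9 in WT cells with Nutlin-3a and 83.6 with DMSO. Both measures were lowest in the lists with auxin. It was the only PCDH7 region in all 6 lists, a pattern of 31 of 1584 regions in the series.

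After auxin region 3 was low and narrow. Its highest peak was 856 bp wide with auxin and Nutlin-3a and 754 bp with auxin, against 3331 and 2042 bp with water and Nutlin-3a and with water, and 4331 and 4300 bp in WT cells with Nutlin-3a and DMSO. Both peaks with auxin were wider than the medians of their own lists, 669 bp with Nutlin-3a and 663 bp without. Their widths were 0.257 and 0.369 times those with water, against medians of 0.735 and 0.845 over all shared regions. The summits lay close together. Relative to its position in WT cells with Nutlin-3a (30759209), it lay at 31 bp with auxin and Nutlin-3a, 11 bp with auxin, −61 bp with water and Nutlin-3a, 23 bp with water and −6 bp with DMSO. All 6 summits therefore fall within 92 bp, inside a region of 4348 bp. Between auxin and water the summits were 92 bp apart with Nutlin-3a and 12 bp apart without. Over all regions shared by those lists the median distances were 38.5 and 49 bp. Between the lists with auxin it was 20 bp at region 3, against a median of 26 bp. Close summits are thus not particular to region 3.

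**Figure D2:**
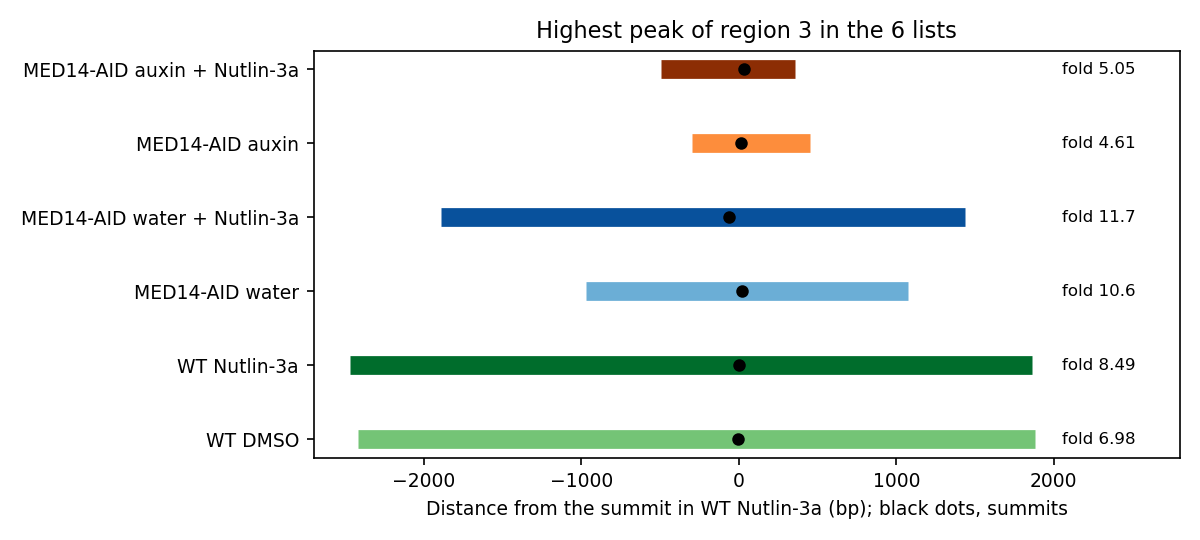
The highest peak of region 3 in each list. Bars run from start to end of the peak in bp from the WT Nutlin-3a summit and dots mark summits. The bars are 856 bp long with auxin and Nutlin-3a and 754 bp with auxin, against 3331 bp with water and Nutlin-3a and 2042 bp with water, around summits that lie within 92 bp.

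Between auxin with Nutlin-3a and auxin alone the single peak was shared, whereas 48.5% of all auxin and Nutlin-3a peaks and 37.7% of all auxin peaks were absent from the other list. The fold of region 3 was 0.434 times the water value with Nutlin-3a and 0.437 times without. Over all regions shared by those lists the median ratios were 0.893 (46 regions) and 0.829 (44 regions). The fold was higher with auxin at 16 of the 46 and 15 of the 44. Low ratios were also found elsewhere. At a region in the chromosome 8 window from 126137638, the fold with auxin was 3.54 against 10.2 with Nutlin-3a, and 3.78 against 7.39 without. In the lists with auxin the peak of region 3 ranked 41 of 66 by fold with Nutlin-3a and 35 of 53 without. Between auxin with Nutlin-3a and auxin alone the ratio was 1.10 at region 3, beside a median of 1.18 over 33 shared regions.

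The other PCDH7 peaks of the water lists were absent with auxin. With Nutlin-3a, 16 of 17 water peaks had no auxin peak (94.1%, Wilson 95% interval 73.0 to 99.0%), and over that list 91.0% had none. Without Nutlin-3a it was 15 of 16 (93.8%, 71.7 to 98.9%), and over the list 90.5%. The intervals cover the counting of peaks only, and neighbouring peaks share a locus. The shares at PCDH7 lie near those of the complete lists and are not a result about PCDH7. As the auxin peak at region 3 is much narrower, it does not meet a 50% reciprocal overlap, and under that setting 17 of 17 and 16 of 16 water peaks were absent.

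Among the lost regions, region 28 (31086169 to 31087351) led with water and Nutlin-3a at a fold of 6.22, followed by region 23 (30947180 to 30949211) at 5.21 and region 12 (30790373 to 30792958) at 5.20. With water alone region 12 led at 6.96, followed by region 19 (30838399 to 30839261) at 4.86 and region 20 (30841150 to 30842360) at 4.56. None of these 5 was listed with auxin. By −log10 q, region 3 ranked 18 with water and Nutlin-3a and 16 with water, and region 12, the next PCDH7 region in both lists, ranked 79 and 52. Among the peaks within 10 ranks of region 3, 14 of 21 were also listed with auxin in the lists with Nutlin-3a, and 10 of 21 in those without. Within 10 ranks of region 12 it was 0 of 22 with Nutlin-3a and 4 of 21 without. Of all peaks at least as high as region 3, 15 of 18 were listed with auxin in the lists with Nutlin-3a and 12 of 16 without. For region 12 these counts were 31 of 79 and 21 of 52. All these counts include the peak of region 3 or region 12 itself. The part of peak strength in the loss at PCDH7 was not tested.

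Most PCDH7 positions were listed in WT cells both with Nutlin-3a and with DMSO. Of the WT Nutlin-3a peaks at PCDH7, 3 of 31 overlapped no DMSO peak (9.68%, Wilson 95% interval 3.35 to 24.9%), against 35.0% of the complete list. Of the DMSO peaks, 2 of 28 overlapped no Nutlin-3a peak (7.14%, 1.98 to 22.6%), against 26.5% of the list. PCDH7 was picked from these lists for its many peaks, so the low shares are descriptions. With 50% reciprocal overlap 9 of 31 Nutlin-3a peaks (29.0%) had no partner. The regions listed with Nutlin-3a and not with DMSO were region 22 (30868116 to 30869430, fold 3.26), region 13 (30794098 to 30794637, fold 3.13) and region 10 (30778462 to 30779117, fold 2.54). Region 22 was also listed with water and Nutlin-3a (2.77) and with water alone (3.32), and the other two in no other list. The regions listed with DMSO and not with Nutlin-3a were region 11 (30785286 to 30785925, fold 3.70) and region 17 (30826080 to 30827049, fold 3.13). No further list held either of them.

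Among the 25 regions in both WT lists, the fold was higher with Nutlin-3a in 18 (72.0%), near the 66.8% over all 775 shared regions of the series. The median ratio of the fold with Nutlin-3a over that with DMSO was 1.20 at PCDH7 (range 0.754 to 1.92), against 1.10 over all shared regions. A ratio over 1.5 was found at 4 of 25 (16.0%), against 10.3% of all. In the main group 13 of 15 shared regions had the higher fold with Nutlin-3a, with a median ratio of 1.28. In the other 6 groups it was 5 of 10, with a median ratio of 1.02. The ratios overlapped, from 0.774 to 1.92 in the main group and from 0.754 to 1.56 in the others. Regions of a group are neighbours, and the difference between the groups was not tested.

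The 4 regions with a ratio over 1.5 differed in height. Region 12 had a fold of 9.42 in WT cells with Nutlin-3a and 4.91 with DMSO, a ratio of 1.92. It was 1 peak of 2521 bp with Nutlin-3a, and with DMSO 2 peaks of 1122 and 779 bp. It was the highest PCDH7 region by fold with Nutlin-3a and the third with DMSO. Region 8 (30770491 to 30773197) had 8.81 with Nutlin-3a and 5.50 with DMSO, a ratio of 1.60, and ranked second at PCDH7 in both. Region 20 had 4.36 with Nutlin-3a and 2.48 with DMSO, a ratio of 1.76. Region 23 had 5.70 with Nutlin-3a and 3.65 with DMSO, a ratio of 1.56.

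Other high regions differed less between the WT lists. Region 27 (31036448 to 31037450) had 6.05 with Nutlin-3a and 4.21 with DMSO. Region 25 (30951579 to 30953778) had 4.59 with Nutlin-3a and 4.39 with DMSO. Region 2 (30754482 to 30756039) had 4.46 with Nutlin-3a and 3.30 with DMSO. Region 1, at the start of the gene, had 3.99 with Nutlin-3a and 4.02 with DMSO, and was 1589 bp wide with Nutlin-3a and 931 bp with DMSO. At the far end, region 29 (31091267 to 31092063) had 3.66 with Nutlin-3a and 3.72 with DMSO. The lowest ratios were at region 26 (30954181 to 30954950), with 2.65 with Nutlin-3a and 3.51 with DMSO, and region 7 (30768719 to 30769364), with 2.17 with Nutlin-3a and 2.81 with DMSO.

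**Figure D3:**
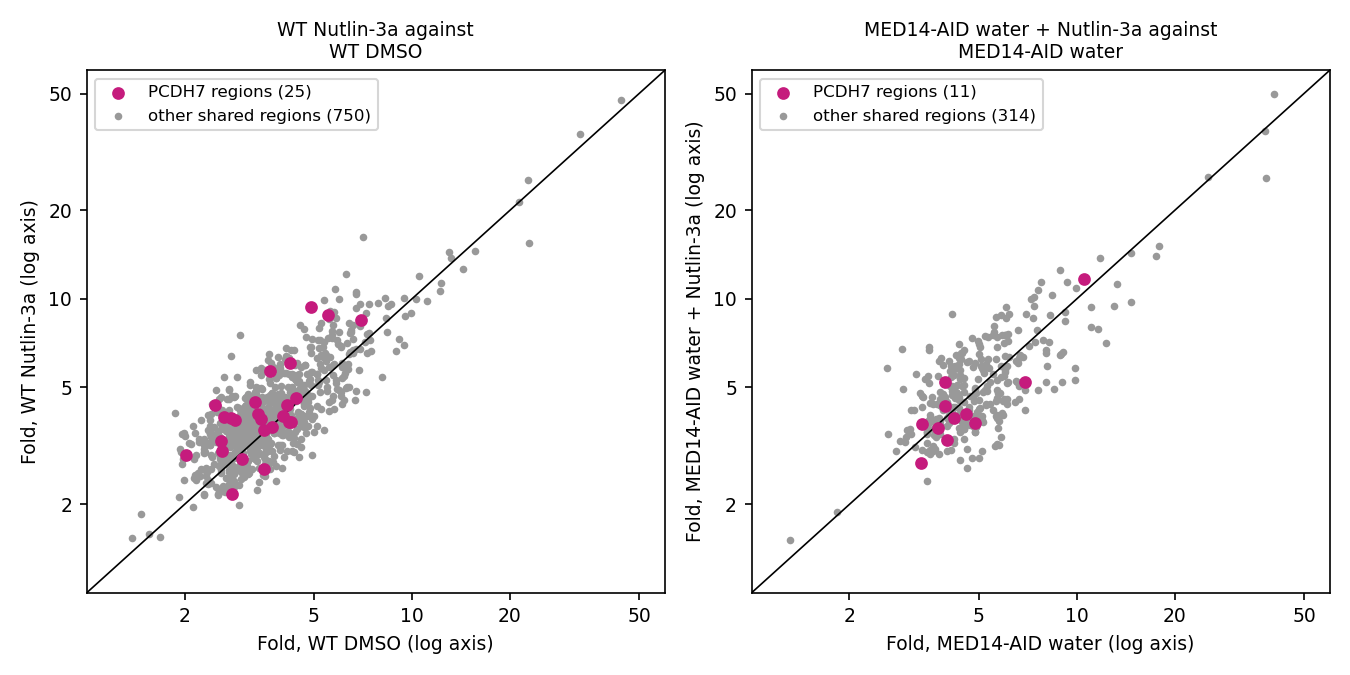
Fold with Nutlin-3a (y axis, log scale) against fold without it (x axis, log scale) for regions shared by both lists, PCDH7 regions in colour and all others in grey, for WT cells (left) and MED14-AID cells with water (right). In WT cells 18 of 25 PCDH7 regions lie above the line of equal fold, and in MED14-AID cells 4 of 11.

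Of the MED14-AID peaks with water and Nutlin-3a at PCDH7, 5 of 17 overlapped no water peak (29.4%, Wilson 95% interval 13.3 to 53.1%), against 31.23% of the complete list. Of the water peaks, 3 of 16 overlapped no peak with Nutlin-3a (18.8%, 6.59 to 43.0%), against 22.5%. Both shares are near the background of their list. The regions listed with Nutlin-3a and not with water alone included the last 3 of the locus, region 28 (fold 6.22), region 29 (4.03) and region 30 (3.95), and region 14 (30803841 to 30805227, fold 3.44). The fifth such peak, with a fold of 3.18, lies in region 12 beside the peak that both lists share. All of regions 14, 28, 29 and 30 were listed in both WT conditions. The regions listed with water and not with Nutlin-3a were region 15 (30814629 to 30815703, fold 4.32), region 4 (30761635 to 30762847, fold 3.28) and region 6 (30766123 to 30768047, fold 2.92). Those 3 were also in both WT lists. Each of the 30 PCDH7 regions was in at least 1 WT list, as were 94.9% of the 1584 regions in the series. Regions 10, 11, 13 and 17, which differed between the WT lists by being listed in one only, were in no MED14-AID list and could not be compared there.

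Over the 11 regions in both water lists, the fold was higher with Nutlin-3a in 4 (36.4%), against 51.1% of all 325 shared regions. The median ratio was 0.938 (range 0.747 to 1.32), against 1.00 over all. Region 23 had the highest ratio, with 5.21 with water and Nutlin-3a and 3.95 with water. Region 8 had 4.33 with water and Nutlin-3a and 3.95 with water. Region 12 had the lowest ratio, with 5.20 with water and Nutlin-3a and 6.96 with water. No ratio was over 1.5, against 5.85% of all shared regions.

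**Figure D4:**
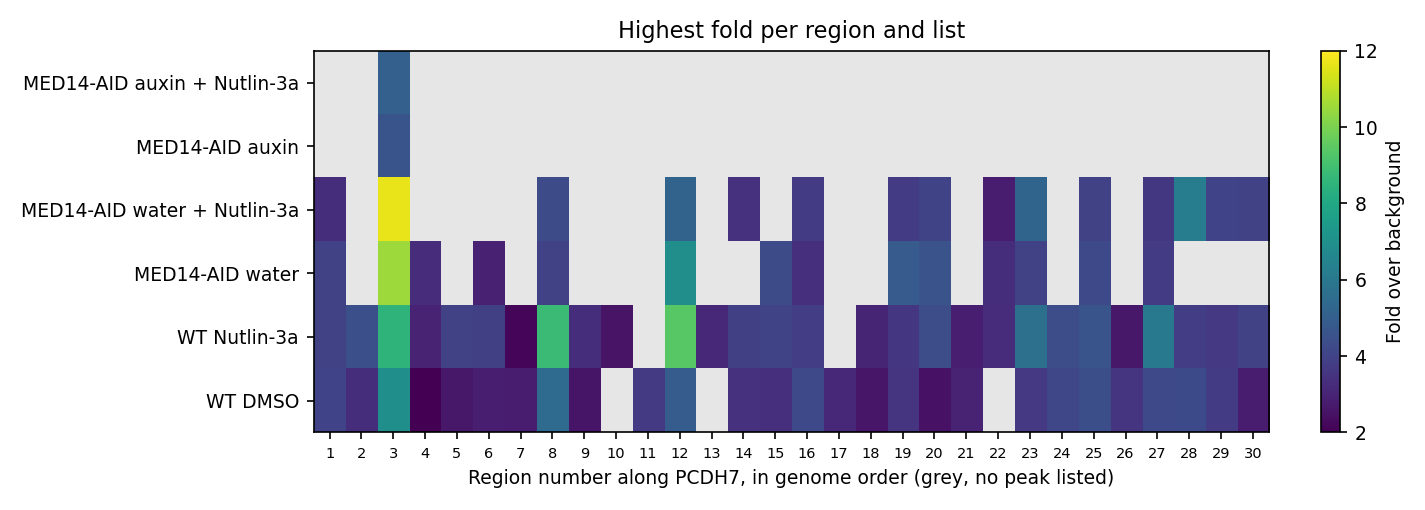
Highest fold of each of the 30 regions (x axis, genome order) in each list (rows), by colour, with grey where no peak was listed. Region 3 is filled in all 6 rows, and 10 regions are filled in the 4 rows without auxin.

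MED14-AID cells without auxin had fewer peaks than WT cells at PCDH7, as in the complete lists. With Nutlin-3a, 0 of 17 peaks with water lay outside the WT Nutlin-3a list (Wilson 95% interval 0 to 18.4%), against 13.2% of the complete list. Without it, 1 of 16 lay outside the WT DMSO list (6.25%, 1.11 to 28.3%), against 14.9%, and that was region 22. In the other direction, 16 of 31 WT Nutlin-3a peaks were absent with water and Nutlin-3a (51.6%, 34.8 to 68.0%), against 66.8% of the list. Of the WT DMSO peaks, 15 of 28 were absent with water (53.6%, 35.8 to 70.5%), against 66.7%. All 4 intervals include the share of the complete list, but they cover the counting of peaks only, and neighbouring peaks share a locus. They cannot decide whether PCDH7 differs from the complete lists, which was not tested. The line cannot be told apart from the mock treatment and from the number of libraries behind a list. The highest WT Nutlin-3a regions that were absent with water and Nutlin-3a were region 2 (4.46), region 24 (30950030 to 30950818, 4.34) and region 15 (4.05). The highest WT DMSO regions absent with water were region 28 (4.26), region 24 (4.13) and region 29 (3.72).

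A water list held 18 of the 30 PCDH7 regions (60.0%), against 561 of 1584 in the series (35.4%). The WT folds by this listing are given for PCDH7 only and not over the series. The 18 regions listed in a water list had the higher median fold in WT cells. It was 3.96 with Nutlin-3a and 3.72 with DMSO, and that of the 12 regions in neither water list was 3.09 and 3.06, over the 10 of them listed in each. The ranges overlap, at 2.95 to 9.42 and 2.17 to 4.46 with Nutlin-3a, and at 2.02 to 6.98 and 2.58 to 4.13 with DMSO. The lowest DMSO fold at PCDH7, that of region 4, was among the 18, and regions 2 and 24, in neither water list, ranked 7 and 9 of the PCDH7 regions by WT Nutlin-3a fold. Of the 30 regions, 10 were in all 4 lists without auxin (33.3%), against 288 of 1584 in the series (18.2%). In the 3 other 650 kb windows with the most WT Nutlin-3a peaks, it was 11 of 31 (chromosome 8), 7 of 28 (chromosome 12) and 8 of 26 (chromosome 7). PCDH7 was picked for its many peaks in these lists, so its shares are descriptions.

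Relative heights differed between the lines. Region 3 had 1.51 times the WT DMSO fold with water, and 1.37 times the WT Nutlin-3a fold with water and Nutlin-3a. Region 8 had 0.717 times the WT fold with water and 0.492 times with water and Nutlin-3a, the lowest ratio of the 15 shared PCDH7 regions in the Nutlin-3a lists. Region 28 had the highest of those, 1.63. Region 20 had the highest ratio of the 13 regions shared by water and WT DMSO, 1.84. Median ratios at PCDH7 were 0.916 with Nutlin-3a and 1.08 without, against 0.984 and 1.12 over all shared regions. A ratio over 1.5 was found at 1 of 15 with Nutlin-3a (6.67%), against 5.93% of all shared regions. Without it this was 3 of 13 (23.1%), against 17.5%. Both shares are near those of all shared regions.

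The distance between summits varied widely among the shared regions. The median distance between the summits of a region was 116 bp at PCDH7 between WT Nutlin-3a and WT DMSO, against 76.0 bp over all shared regions, and 12 of 25 lay within 100 bp, against 60.5% of all. Between water with Nutlin-3a and water it was 84.0 bp, against 104 bp, with 7 of 11 within 100 bp, against 49.8%. Between the lines it was 136 bp for water with Nutlin-3a and WT Nutlin-3a (6 of 15 within 100 bp, against 55.1%, and up to 541 bp). For water and WT DMSO it was 117 bp (6 of 13, against 51.5%, and up to 817 bp). Among the 10 regions in all 4 lists without auxin the summits spanned from 84.0 to 894 bp, with a median of 207.5 bp, and 4 spans were within 200 bp. Region 3 had the narrowest span, followed by region 12 (87.0 bp), region 25 (91.0 bp) and region 8 (184 bp). The widest was at region 23.

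**Figure D5:**
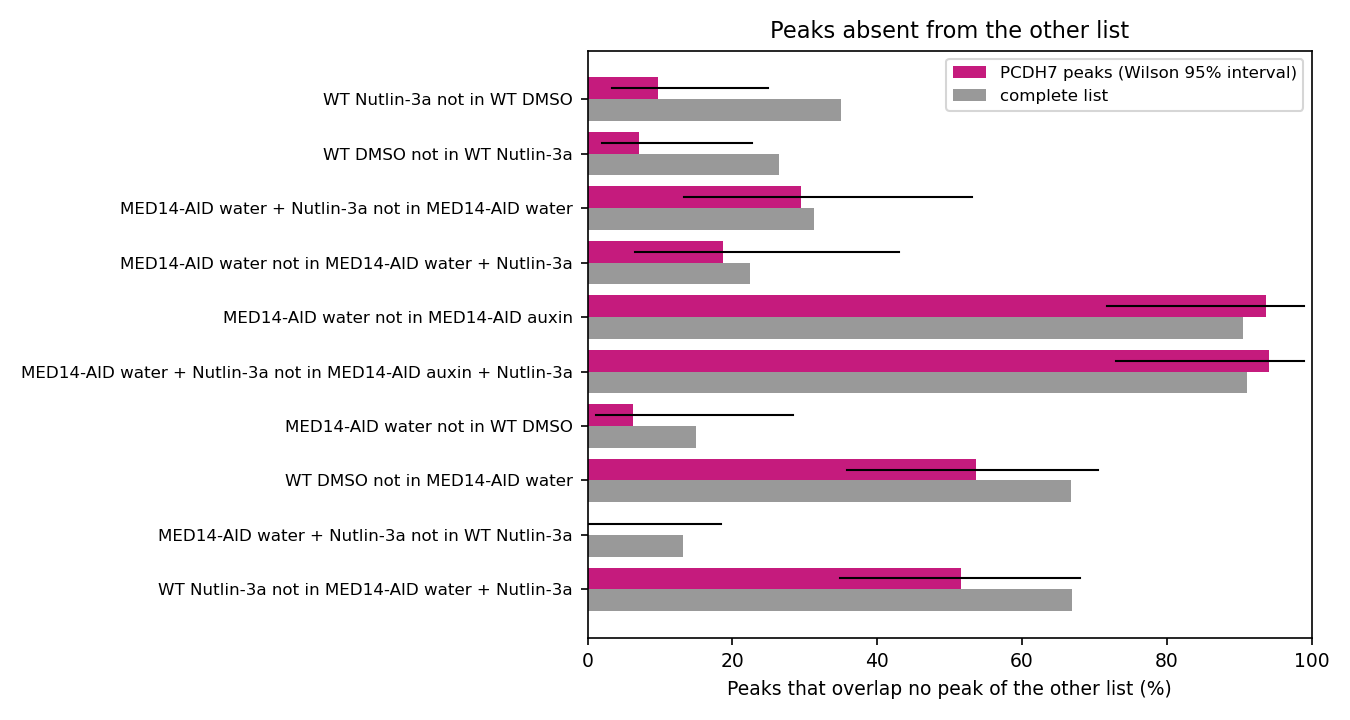
Share of peaks in a list that overlap no peak of the other list (x axis, percent), for PCDH7 peaks with Wilson 95% intervals (upper bars) and for the complete list (lower bars). Against the auxin lists the PCDH7 shares are 94.1% with Nutlin-3a and 93.8% without, and between the WT lists they are 9.68% for Nutlin-3a peaks and 7.14% for DMSO peaks.

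The PCDH7 window, with 31 WT Nutlin-3a peaks, was set beside the 3 other windows of 650 kb with the most. They lie on chromosome 8 from 126137638 (28 peaks), chromosome 12 from 76017508 (27 peaks) and chromosome 7 from 130522993 (25 peaks). PCDH7 and the chromosome 8 window each had 1 region listed with auxin, and the other two had 0. The median ratio of WT Nutlin-3a over WT DMSO folds was 1.20 at PCDH7 and 1.13, 1.00 and 1.15 in those windows. For water with Nutlin-3a over water it was 0.938 at PCDH7, and 1.02, 0.949 and 0.965. No test of these differences was made, and none of these values is called particular to PCDH7.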

How the data were processed

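MED1 ChIP-seq of HCT116 cells comprised 16 samples, 8 MED1 libraries and 8 inputs, behind 6 peak lists. Per the submitters' processing notes, the tools were Bowtie 0.12.9 for alignment to hg19 and MACS2 2.1.2 for peak calling, with settings not given in the sources used here. WT lists were called on merged replicates, per the peak names in the deposited files. The deposited fold of a peak is the authors' ratio over background, and the deposited −log10 values used are those of the q-value. The deposited summit offset counts bp from the start of the peak. Depth is unknown.

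Peaks overlapping the window were the members. The members and lists were chosen with earlier results of these data known. Peaks sharing at least 1 bp counted as overlapping, and regions join overlapping peaks of the 6 lists. A region's value in a list is that of its highest peak by fold. Positions are hg19 and 1-based. The ends of PCDH7 are rounded to 10 kb. Shares of listed peaks have Wilson 95% intervals. No test between conditions was made, as each condition has 1 list. Sequence features of the peaks, planned for a genome of the same build, were not analysed here. The promoter came from RefSeq.

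Values were given for the 8 regions with the highest WT Nutlin-3a fold, up to 3 regions found in only one list of each of 7 pairs, every region listed with auxin, and those nearest the ends of the gene. Regions 7, 26 and others given for an extreme ratio were chosen after their values were seen. Alternatives were −log10 q of at least 5 or 10, the gene alone, 50% reciprocal overlap, a 1 kb gap, regions with 1 peak a list, and joining up to 5 or 25 kb. The work ran in Python 3.11.15 with scipy 1.17.1, pandas 2.3.3, numpy 2.4.6 and matplotlib 3.10.9. Of 14 overlap counts repeated with bedtools 2.31.1, 0 differed. In a simulation from the 1106 WT DMSO peaks, 300 of 300 copied peaks were recovered and 2 of 806 uncopied peaks were called shared. Copied peaks were shifted by at most 150 bp, against a median width of 760.5 bp. Their recovery was therefore all but fixed in advance and checks the code only.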

Additional observations from a re-analysis of the deposited data

Results flagged for a closer look

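The fold went in opposite directions with Nutlin-3a in the 2 lines at 6 of the 10 PCDH7 regions in all 4 lists without auxin, and at 134 of 288 such regions in the series (46.5%). The ratio of fold with Nutlin-3a over without was 0.747 in MED14-AID cells with water and 1.92 in WT cells at region 12. At region 20 it was 0.887 in MED14-AID cells and 1.76 in WT cells, and at region 27 it was 0.970 in MED14-AID cells and 1.44 in WT cells. The other 3 were region 16 (1.13 in MED14-AID and 0.910 in WT cells), region 25 (0.938 in MED14-AID and 1.04 in WT cells) and region 19 (0.779 in MED14-AID and 1.02 in WT cells). Ratios of at least 1.25 in opposite directions were found at 1 of the 10, region 12, and at 26 of the 288 (9.03%). The share at PCDH7 is near that of the series at this limit, which was chosen after the values were seen. None of these differences was tested, as each condition has 1 list.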

How the results depend on the processing

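At −log10 q of at least 10 the peaks at PCDH7 numbered 5 with water and Nutlin-3a, 3 with water and 17 in WT DMSO. With 50% reciprocal overlap the absent share was 100% in both directions between auxin and water, with and without Nutlin-3a. Under that setting it was 29.0% for WT Nutlin-3a against WT DMSO, 52.9% for water with Nutlin-3a against WT Nutlin-3a and 68.8% for water against WT DMSO. In reverse it was 74.2% for WT Nutlin-3a and 82.1% for WT DMSO. With a limit of 10 on −log10 q in the first list and none in the other, a setting chosen after seeing the data, it was 0% for water against water with Nutlin-3a, 0% for water against WT DMSO, 66.7% (2 of 3) for water against auxin and 31.8% for WT Nutlin-3a against water with Nutlin-3a. Joining up to 5 kb gave PCDH7 rank 2 by peak number in each WT list and rank 1 with water, and joining up to 25 kb gave rank 2 with water and Nutlin-3a. The cause of these shifts was not tested. The other 43 absent shares stayed within their intervals, 15 peak counts and 8 ranks stayed within 1.5 times, and 8 fold ratios and 4 summit distances over several regions moved by less than the SD over the regions. Among these, with 1 peak a list per region the median summit distance between water and WT DMSO was 213 bp over 10 PCDH7 regions. It was 117 bp over all 13 shared PCDH7 regions. The other 5 fold ratios and 2 summit distances rest on region 3 alone, have no SD and had no room to move. With 1 auxin peak, shares of the auxin lists are 0 or 100% only. Many of these shares, and the peak counts of the auxin lists, are among the values given as unmoved. They had little room to move. No paired analysis was possible because each WT list joins both replicates. For the same reason no replicate could be left out. Depth limits which weak peaks are listed, and an unlisted region may still be bound.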
